A study of Zea mays with 6 samples.

Results

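The WRKY transcription factors are described here in unpollinated maize ovaries whose carpels had or had not fused completely. Members were all rows of the deposited expression table with TF family exactly WRKY, which gave 58 of 25368 rows, each with its own gene identifier. The table compares wild-type (WT) ovaries with ovaries of the *incompletely fused carpels* (*ifc*) phenotype, in which the stylar canal does not close. Both kinds of ovary were taken from inbred Yu-A474 plants grown without stress, and the ears were kept covered against pollination. Sampling was timed to the onset of the carpel wall defect. The sampled ovaries stood next to each other in the middle of the same ear, and glumes, lemma and palea were removed. The labels call the genotypes wild type and IFC mutant, but because WT and *ifc* ovaries shared an ear, the names mark ovary phenotypes rather than plants of different genotype. There were 3 libraries of WT and 3 of *ifc*, and the authors pooled their exonic reads, so that each row has 1 FPKM value per phenotype. FPKM is a fragment density scaled to transcript length and to sequencing depth, here with the authors' quartile normalization. With 1 pooled value per phenotype, the values below carry no error, and no difference was checked here against replicates.

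WRKY proteins are a plant family named after a conserved heptapeptide that starts with the residues W, R, K and Y and is followed by a zinc finger. They bind the W-box of target promoters, an element with the core TTGAC, and many WRKY genes carry W-boxes themselves. In *Arabidopsis* the family is best known for responses to pathogens, wounding, salicylate and drought, and a few members act in seed coat, trichome or embryo development. Subgroup I proteins carry a pair of WRKY domains and subgroups II and III carry 1, with subgroup II split into classes IIa to IIe. Each maize row was placed in a subgroup through its *Arabidopsis* match as listed in the table, and roles given below are those known for the *Arabidopsis* gene. The 58 rows matched 30 *Arabidopsis* WRKY genes. Subgroup I had 15 rows, IIa had 2, IIb had 1, and IIc, IId, IIe and III had 10 each. RefSeq for the Zm-B73-REFERENCE-NAM-5.0 assembly listed 37 of the 58 identifiers, of which 16 carried a maize WRKY name, such as WRKY53 for the WRKY40 match GRMZM2G125653. Maize and *Arabidopsis* numbers do not correspond, and only *Arabidopsis* numbers are used below.

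Of the members, 1 had designed oligonucleotides in the study, and they are shown because they belong to the gene with the largest ratio among members above 2 FPKM. These are the quantitative PCR primers of the WRKY41 match GRMZM2G408462, which the table places at chr3:212821184-212822609 (B73 RefGen_v3) on the plus strand.
forward primer: ccagtgcaagaagaggaagg
reverse primer: tgtccttctggccgtacttc
reverse complement of the reverse primer: gAAGTACGGCCAGAAGgaca
The capitals mark 15 bases which, translated in frame, encode the last 5 of the 7 residues of the heptapeptide. The reverse primer thus carries part of the code for the motif that defines the family. No PCR value is used here.

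In WT ovaries 14 WRKY rows had high expression (at least 10 FPKM), 28 intermediate expression (2 to below 10 FPKM) and 16 low expression (below 2 FPKM). In *ifc* ovaries these were 17, 27 and 14 rows. The median FPKM over the 58 rows was 4.66 in *ifc* and 4.36 in WT, and the summed FPKM was 483 in *ifc* and 441 in WT. Levels thus ran lower than in the whole table, where the median was 9.40 in *ifc* and 9.47 in WT. The most abundant member was the WRKY65 match GRMZM2G141299, with 55.7 FPKM in *ifc* against 52.4 in WT. Next by mean came GRMZM2G091331, a match of WRKY11, which binds calmodulin and limits basal resistance, with 25.9 FPKM in *ifc* against 32.8 in WT. The WRKY4 match GRMZM2G549512, of a gene that acts in resistance to necrotrophic fungi, followed with 28.3 FPKM in *ifc* against 25.9 in WT. Another WRKY11 match, GRMZM2G102583, had 23.5 and 22.6. The WRKY20 match GRMZM2G398506 had 20.4 and 21.0. These 5 most abundant members all lay within 1.5-fold.

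**Figure D1:**
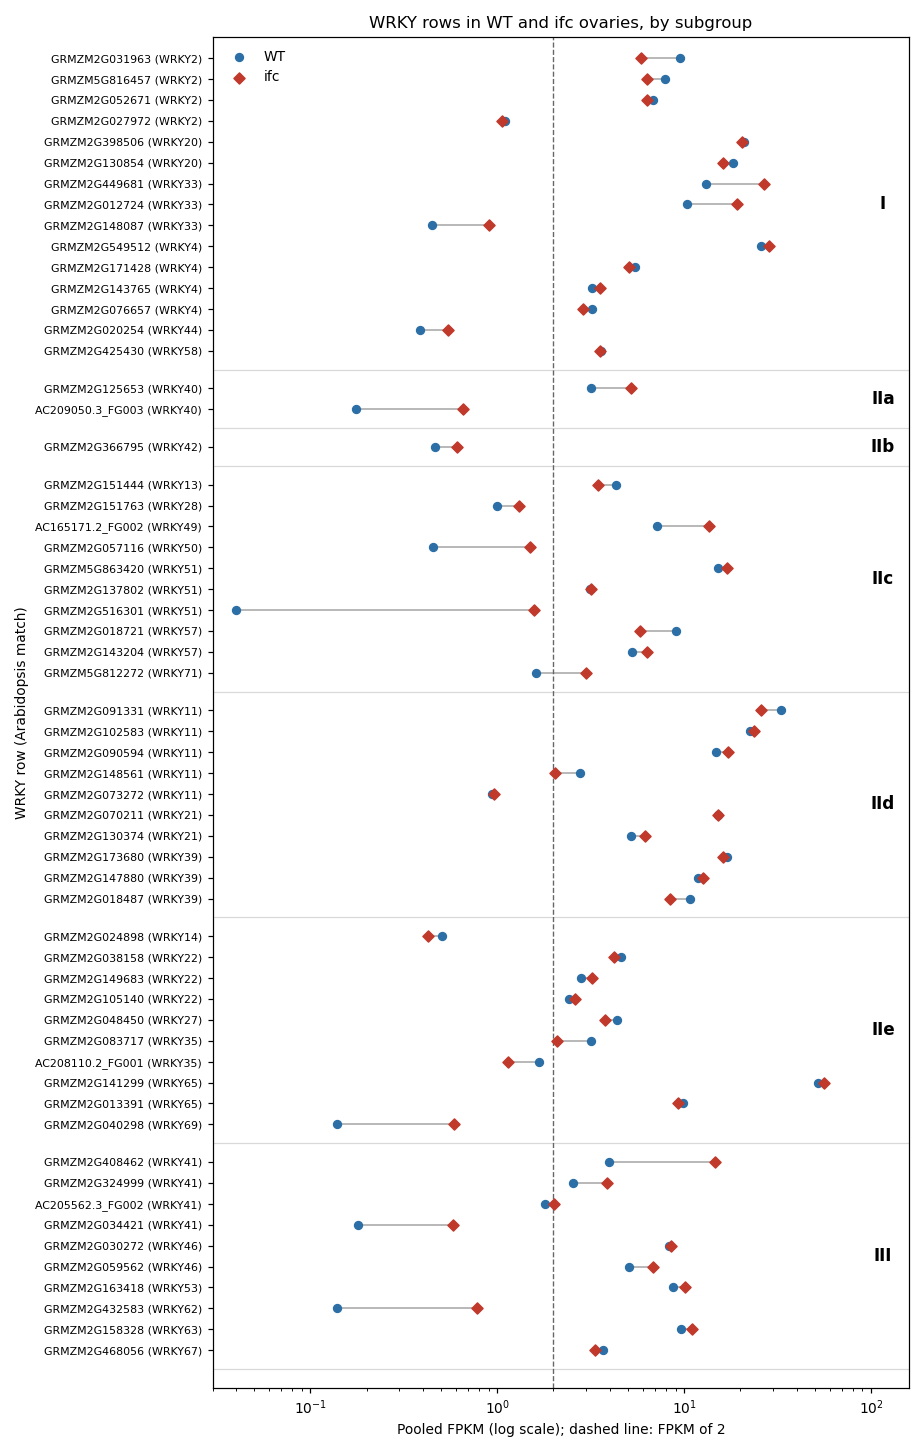
Pooled FPKM of the 58 WRKY rows on a log axis, WT as circles and *ifc* as diamonds joined by a line, with the *Arabidopsis* match in brackets and rows grouped by subgroup. The WRKY65 match GRMZM2G141299 is highest at 55.7 FPKM in *ifc* against 52.4 in WT, and the longest line, that of GRMZM2G516301, runs from 0.0399 in WT to 1.57 in *ifc*, both left of the dashed line at 2.

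To compare the phenotypes, a row was counted as past the fold when its pooled FPKM differed by more than 1.5-fold and was above 2 in *ifc* or WT, which are the study's limits of fold and level. The study also set a p-value limit, which was not applied here, so the counts are not its calls. By these limits 7 WRKY rows were higher in *ifc*, 3 were lower, and 34 lay within 1.5-fold. The remaining 14 rows were not above 2 in either phenotype. Those higher were matches of WRKY33 and WRKY41 (2 rows each), WRKY40, WRKY49 and WRKY71, and those lower were matches of WRKY2, WRKY57 and WRKY35. Over all 21093 rows above 2 FPKM, 4.13% were higher by more than 1.5-fold and 2.55% lower, against 15.9% and 6.82% of the 44 WRKY rows, and 6.68% differed in either direction. At more than 2-fold, 2 WRKY rows were higher, against 1.43% of all rows. Among the 1091 rows with any TF family and an FPKM above 2, 6.32% were higher and 4.12% lower. The middle of the family did not stand far off. Its median log2 ratio was 0.05 (quartiles -0.16 and 0.22), against -0.02 over all rows (-0.17 and 0.14), and 24 of the 44 rows were higher in *ifc* by any amount, as were 45.9% of all rows. These shares describe 2 pooled samples, and no test was made. The FPKM minimum took in GRMZM5G812272 and AC205562.3_FG002 through their *ifc* value alone, since both were below 2 in WT. Directions follow the authors' scaling. Had the summed FPKM been made equal, 41 of the 44 WRKY rows would be higher and 0 lower by these limits. So scaled, 97.4% of all rows would be higher and 0.17% lower, so these counts do not set the family apart. The summed FPKM is dominated in WT by 1 row, GRMZM2G070931, with a share of 55.6%, which *ifc* lists at 0.

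The carpel and ovule markers that define the tissue were present. Of 8 *Arabidopsis* markers, 7 had maize matches in the table, with 16 rows, all above 2 FPKM and the highest at 695 FPKM in *ifc* against 754 in WT (GRMZM2G159397, a SEP3 match). These rows were lower in *ifc* in 15 of 16 cases, with 1 past 1.5-fold. Among the 21093 table rows above 2 FPKM, 11417 were lower by any amount and 2.55% by more than 1.5-fold. The summed FPKM of the 16 marker rows was 3031 in *ifc* and 3329 in WT. Of 6 anther and tapetum markers, 1 had a row, the AMS match GRMZM2G139372, at 0.452 FPKM in *ifc* against 0.119 in WT. Leaf mesophyll markers had 4 rows for 3 of 6 markers, summing to 77.4 FPKM in *ifc* against 88.5 in WT. Whether these shifts had a part in the WRKY values was not tested, and since whole ovaries were used, fewer cells of a type and less RNA per cell cannot be told apart.

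The WRKY41 matches were higher in *ifc* in all 4 rows, and included the largest ratio among members above 2 FPKM. WRKY41 of *Arabidopsis* belongs to subgroup III and responds to bacterial flagellin. GRMZM2G408462 had 14.7 FPKM in *ifc* against 3.95 in WT. It was 3.71-fold higher (log2 ratio 1.89), which places it at rank 73 of the 21093 rows when ordered from the highest ratio down. GRMZM2G324999 (chr1:216633235-216641786) had 3.85 and 2.56 FPKM, 1.51-fold higher, and lies just past the limit. On log2 of FPKM + 0.1 its difference was 0.57, which is under 1.5-fold. AC205562.3_FG002 had 2.01 FPKM in *ifc* against 1.80 in WT. GRMZM2G034421 had 0.577 and 0.181 FPKM, under the level limit in both. A single gene thus made up most of the difference of this match, whose summed FPKM was 21.1 in *ifc* and 8.49 in WT.

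Matches of WRKY33 were also higher in *ifc* in all 3 rows. WRKY33 is a subgroup I factor phosphorylated by the MAP kinases MPK3 and MPK6, and is needed for camalexin synthesis and for resistance to necrotrophic fungi. GRMZM2G449681 (chr8:109740014-109742387, minus strand) had 26.8 FPKM in *ifc* against 13.0 in WT, 2.06-fold higher (log2 ratio 1.04). GRMZM2G012724 (chr6:141604321-141606522, minus strand) had 19.2 and 10.4 FPKM, 1.85-fold higher. The other, GRMZM2G148087, had 0.901 and 0.449 FPKM. The 2 rows above 2 FPKM were among the more abundant WRKY genes, so that the summed FPKM of the WRKY33 matches went from 23.9 in WT to 46.9 in *ifc*, a larger step in FPKM than for any other *Arabidopsis* match among the members.

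Subgroup IIa, whose *Arabidopsis* genes WRKY18, WRKY40 and WRKY60 are induced early by microbial signals and act as repressors in defence and abscisic acid responses, had 2 members, both WRKY40 matches. GRMZM2G125653 (chr7:115336588-115338419, minus strand) had 5.20 FPKM in *ifc* against 3.18 in WT, 1.63-fold higher. On log2 of FPKM + 1 its difference was 0.57, under 1.5-fold. AC209050.3_FG003 had 0.657 and 0.175 FPKM. Both were therefore higher in *ifc*, 1 of them at a level under 2.

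The other 2 rows past the fold upwards belong to subgroup IIc. AC165171.2_FG002 (chr3:144777898-144779302, plus strand), the match of WRKY49, had 13.6 FPKM in *ifc* against 7.16 in WT, 1.901-fold higher. GRMZM5G812272 (chr8:148612690-148615433, minus strand) matches WRKY71, which promotes shoot branching and flowering, and had 2.99 and 1.61 FPKM, 1.86-fold higher. Each is the single member with its *Arabidopsis* match.

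The 3 rows past the fold downwards were of moderate level in WT and came from different subgroups. GRMZM2G031963 (chr10:124679422-124684591, plus strand) had 5.87 FPKM in *ifc* against 9.46 in WT, 1.61-fold lower (log2 ratio -0.69). Its match, WRKY2 of subgroup I, acts in zygote polarity, pollen development and the abscisic acid control of germination. The other WRKY2 matches were lower too, by less. GRMZM5G816457 had 6.31 and 7.94 FPKM, GRMZM2G052671 had 6.34 and 6.80, and GRMZM2G027972 had 1.06 and 1.11. So all 4 WRKY2 matches of the family were lower in *ifc*, 1 of them past 1.5-fold.

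GRMZM2G018721 (chr7:1923281-1927959, plus strand) had 5.84 FPKM in *ifc* against 9.01 in WT, 1.54-fold lower. It matches WRKY57 of subgroup IIc, a gene of drought tolerance and leaf senescence. The other WRKY57 match, GRMZM2G143204, had 6.30 FPKM in *ifc* against 5.28 in WT, so this pair moved in opposite directions. GRMZM2G083717 (chr1:299362323-299367903, plus strand) matches WRKY35, also named MEE24 after a maternal effect on embryo arrest. It had 2.09 FPKM in *ifc* against 3.19 in WT, 1.53-fold lower, and the second WRKY35 match, AC208110.2_FG001, had 1.14 and 1.67. On log2 of FPKM + 1 the differences of GRMZM2G018721 and GRMZM2G083717 were -0.55 and -0.44, under 1.5-fold. The first rows on the other side of the limit were the WRKY46 match GRMZM2G059562 at 1.34-fold higher and the WRKY11 match GRMZM2G148561 at 1.36-fold lower.

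**Figure D2:**
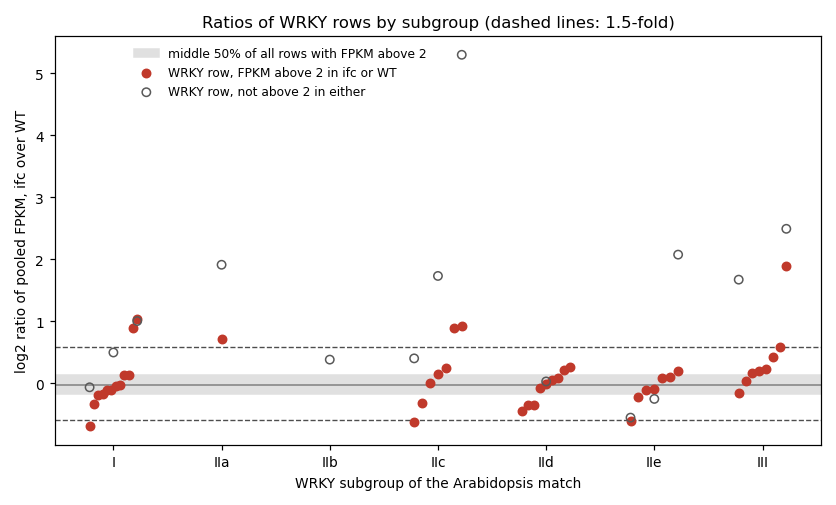
Log2 ratio of pooled FPKM (*ifc* over WT) of each WRKY row by subgroup, filled where the FPKM was above 2 in *ifc* or WT and open where it was not, with the interquartile range of all rows in grey. In subgroup III, 7 of 8 filled points lie above 0, while all 9 filled points of subgroup IId lie between -0.45 and 0.26. The 7 include AC205562.3_FG002, which is filled through its *ifc* value alone.

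The subgroups are described by their counts, each from 12 rows above 2 FPKM or fewer, and no difference between subgroups was tested. In subgroup III, 7 of the 8 rows above 2 FPKM were higher in *ifc* (median log2 ratio 0.21), against 45.9% of all rows, and 2 were past 1.5-fold upwards, both WRKY41 matches, against 4.13% of all rows. The 7 include a further WRKY41 match, AC205562.3_FG002, which passed the FPKM minimum through its *ifc* value alone. Besides these, the WRKY46 match GRMZM2G059562, of a gene of drought and salicylate responses, had 6.80 FPKM in *ifc* against 5.07 in WT, and the match of the senescence regulator WRKY53, GRMZM2G163418, had 10.2 and 8.67. The match of WRKY63 (ABO3), a gene of abscisic acid and drought responses, was GRMZM2G158328, with 11.04 and 9.67 FPKM. The WRKY67 match GRMZM2G468056 was the 1 lower row, with 3.32 and 3.70 FPKM. The summed FPKM of the 10 subgroup III rows was 61.7 in *ifc* and 44.0 in WT, or 1.40 times, and 10.7 of the gap came from GRMZM2G408462.

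Subgroup IId holds the calmodulin-binding WRKY factors. Of its 9 rows above 2 FPKM, 0 were past 1.5-fold, where over all rows 6.68% were past it in either direction, so that a count of 0 in 9 does not set the subgroup apart. These rows had log2 ratios from -0.45 to 0.26 and a median of -0.01. Its summed FPKM was 128 in *ifc* and 134 in WT. The 5 WRKY11 matches did not move together. GRMZM2G091331 and GRMZM2G148561 were lower in *ifc* (1.27-fold and 1.36-fold), while GRMZM2G090594 had 17.2 FPKM in *ifc* against 14.8 in WT and the WT and *ifc* values of the other 2 were nearly equal. The WRKY39 matches GRMZM2G173680, GRMZM2G147880 and GRMZM2G018487 ranged from 8.41 to 16.2 FPKM in *ifc*, and the WRKY21 matches GRMZM2G070211 and GRMZM2G130374 had 15.1 and 6.21 FPKM there.

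In subgroup I the median log2 ratio was -0.07, with 4 of 12 rows above 2 FPKM higher and 8 lower. Of the higher rows, 2 were the WRKY33 matches, and the others were WRKY4 matches. The 4 WRKY4 matches lay between 1.13-fold lower (GRMZM2G076657) and 1.099-fold higher (GRMZM2G143765). Both WRKY20 matches were slightly lower in *ifc*, at 20.4 against 21.0 FPKM (GRMZM2G398506) and 16.1 against 18.2 (GRMZM2G130854). Subgroup IIe had 7 rows above 2 FPKM, of which 3 were higher and 4 lower, with a median of -0.10. Among these, the matches of WRKY22, which acts downstream of a MAP kinase cascade, ranged from 2.59 to 4.23 FPKM in *ifc* and were all within 1.15-fold. In subgroup IIc, 5 of 7 rows were higher, with a median of 0.16. The 5 include GRMZM5G812272, which passed the FPKM minimum through its *ifc* value alone. The counts of subgroups I, IIe and IIc are read beside 45.9% of all rows above 2 FPKM being higher by any amount. The IIc match of WRKY13, which acts in stem cell wall formation, had 3.46 FPKM in *ifc* against 4.32 in WT (GRMZM2G151444).

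WRKY rows at low level leaned towards *ifc*. Of the 14 rows not above 2 FPKM in either phenotype, 7 were higher in *ifc* by more than 1.5-fold and 0 lower, and 11 were higher by any amount. Low rows of the whole table leaned the same way, with 23.4% of 4261 rows above 0 in both phenotypes and not above 2 in either higher by more than 1.5-fold and 7.65% lower. By any amount, 2672 of these 4261 rows were higher in *ifc* and 1589 lower. The 7 rows included the WRKY50 match GRMZM2G057116 (1.498 FPKM in *ifc* against 0.451 in WT), the WRKY62 match GRMZM2G432583 (0.783 and 0.139) and the WRKY69 match GRMZM2G040298 (0.589 and 0.140). WRKY50, WRKY51 and WRKY62 of *Arabidopsis* act where salicylate and jasmonate signals meet. The widest ratio of the family was that of the WRKY51 match GRMZM2G516301, which had 1.57 FPKM in *ifc* against 0.0399 in WT, or 39.3 times. The table does not give the number of fragments behind a WT value this small. The more abundant WRKY51 matches differed little, with 17.0 and 15.2 FPKM for GRMZM5G863420 and 3.18 and 3.16 for GRMZM2G137802. GRMZM2G020254, the match of the trichome and seed coat gene WRKY44 (TTG2), had 0.545 FPKM in *ifc* against 0.386 in WT. GRMZM2G151763, the match of WRKY28, which activates salicylate synthesis, had 1.31 and 0.993.

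The family label missed some WRKY genes. A further 13 rows held WRKY in the *Arabidopsis* symbol or the description but had no TF family. Of these, 7 had an *Arabidopsis* WRKY match, and 4 of the 7 were past the fold, 3 higher and 1 lower. Over all rows above 2 FPKM, 4.13% were higher and 2.55% lower by these limits. GRMZM2G004060 (chr10:12108515-12110234, plus strand), the match of WRKY70, a node between salicylate and jasmonate signalling, had 60.4 FPKM in *ifc* against 21.2 in WT, 2.85-fold higher. In *ifc* this was above every row with the family label. GRMZM2G120320, another WRKY40 match, had 20.9 and 9.42 FPKM, 2.22-fold higher. GRMZM2G139815, the match of the oxidative stress gene WRKY30, had 4.84 and 1.85 FPKM, 2.62-fold higher. It was below 2 in WT, so its place in any count of rows past the fold rests on its *ifc* value alone. GRMZM2G151407, another WRKY2 match, had 3.03 FPKM in *ifc* against 4.81 in WT, 1.59-fold lower.

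With these rows beside the family, the WRKY40 matches summed to 26.8 FPKM in *ifc* against 12.8 in WT over 3 rows, all higher in *ifc*, and the WRKY2 matches to 22.6 and 30.1 over 5 rows, all lower. The other 3 rows with an *Arabidopsis* WRKY match were within 1.5-fold. They were the WRKY11 match GRMZM2G071907 (24.4 and 24.2 FPKM), the WRKY55 match GRMZM2G063216 (4.79 and 5.73) and the WRKY53 match GRMZM2G063880 (4.14 and 4.08). The remaining 6 rows were described as DNA-binding WRKY, but their *Arabidopsis* matches AT1G28280 and AT1G80450 are VQ proteins, short partners of WRKY factors rather than members of the family. With the 7 rows added, 10 of 51 WRKY rows above 2 FPKM were higher and 4 lower, against 4.13% and 2.55% of all rows. With all 13 it was 11 and 5 of 56, but this counts VQ matches, GRMZM2G314520 as higher and GRMZM2G055404 as lower. The 6 VQ matches are also part of the VQ list below.

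**Figure D3:**
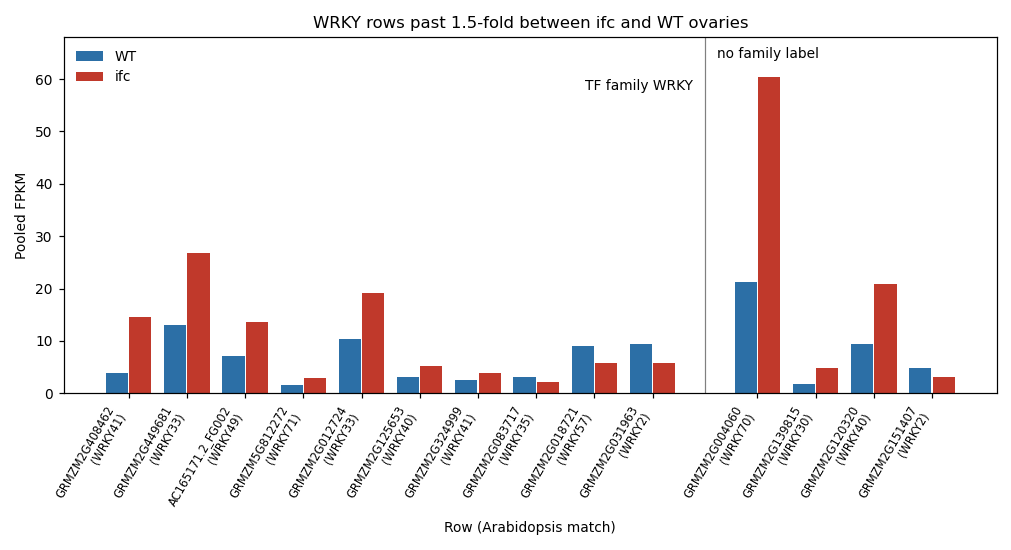
Pooled FPKM in WT and *ifc* ovaries as bars for the 10 WRKY rows past 1.5-fold (left) and the 4 rows past it that match an *Arabidopsis* WRKY gene but carry no family label (right). The WRKY70 match GRMZM2G004060 reaches 60.4 FPKM in *ifc*, and the WRKY33 match GRMZM2G449681 is highest among the family's rows shown, at 26.8.

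Genes of the pathways in which WRKY factors work were examined through *Arabidopsis* identifiers. VQ proteins bind WRKY domains and adjust their activity, and their list gave 23 rows for 15 of 34 identifiers. Of the 14 rows above 2 FPKM, 3 were higher in *ifc* and 1 lower, with a median log2 ratio of -0.06. GRMZM2G118172, a VQ29 match, had 14.0 FPKM in *ifc* against 6.18 in WT, 2.26-fold higher. GRMZM2G369742 matches MKS1, which ties WRKY33 to MPK4 in *Arabidopsis*, and had 5.90 and 3.83 FPKM, 1.54-fold higher. The VQ4 matches GRMZM2G314520 (5.70 and 2.80 FPKM) and GRMZM2G055404 (4.51 and 7.04) lay on opposite sides. Matches of SIB1, a partner of WRKY33, were abundant and within 1.5-fold, at 62.8 and 56.5 FPKM for GRMZM2G417835 and 64.3 and 70.0 for AC203294.3_FG012.

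The MAP kinase module, which phosphorylates WRKY factors, showed no row past the fold. Over all rows 6.68% were past it in either direction, so a count of 0 in 19 does not set the module apart. Its list gave 21 rows for 10 of 16 identifiers, and the 19 rows above 2 FPKM had log2 ratios from -0.21 to 0.20 with a median of -0.06. The MPK3 match GRMZM2G053987 had 21.9 FPKM in *ifc* against 20.5 in WT, and the MPK6 match GRMZM2G020216 had 24.5 and 25.6.

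Salicylate genes gave 22 rows for 12 of 25 identifiers, and of 16 rows above 2 FPKM, 2 were higher and 0 lower (median log2 ratio 0.02). GRMZM2G126749 matches SARD1, an activator of salicylate synthesis, and had 25.5 FPKM in *ifc* against 12.3 in WT, 2.07-fold higher. GRMZM2G099467 had 5.47 and 2.08 FPKM, 2.63-fold higher. It matches DMR6, an enzyme that inactivates salicylate, although the table describes it as a gibberellin 20-oxidase. The other DMR6 match above 2 FPKM, GRMZM2G146234, had 3.45 FPKM in both phenotypes. A further DMR6 match, GRMZM2G475380, had 1.44 FPKM in *ifc* against 0.254 in WT. The receptor match NPR1 (GRMZM2G077197) had 3.46 FPKM in *ifc* against 3.60 in WT. These shares are read against 4.13% higher and 2.55% lower over all rows, and no more is claimed of the lists than their counts.

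**Figure D4:**
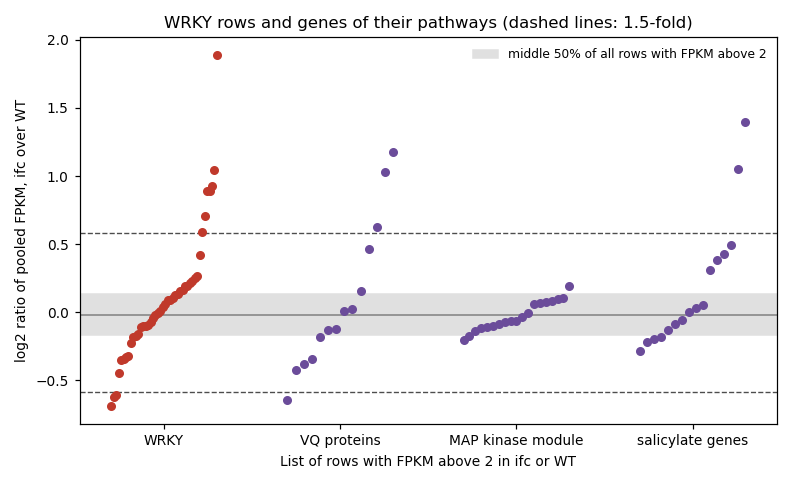
Log2 ratio of pooled FPKM (*ifc* over WT) for rows above 2 FPKM of the WRKY family, VQ proteins, the MAP kinase module and salicylate genes, with the interquartile range of all rows in grey and dashed lines at 1.5-fold. The 19 rows of the MAP kinase module lie between -0.21 and 0.20, and the 44 WRKY rows run from -0.69 to 1.89.

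WRKY rows lay on all 10 chromosomes, with most on chromosomes 3 (12 rows) and 8 (10 rows). Rows higher by more than 1.5-fold were on chromosomes 1, 3, 6, 7 and 8, and lower rows on chromosomes 1, 7 and 10. Within 100 kb of each other lay 2 pairs of members, all from subgroup III. The WRKY46 match GRMZM2G059562 and the WRKY63 match GRMZM2G158328 stand 31.4 kb apart on chromosome 3 (184872990-184874285 and 184905731-184908623), and were 1.34-fold and 1.14-fold higher in *ifc*. The WRKY41 match GRMZM2G034421 and the WRKY62 match GRMZM2G432583 stand 63.9 kb apart on chromosome 8 (118496549-118498937 and 118562817-118564187), and both had under 1 FPKM in either phenotype.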

How the data were processed

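RNA from 3 WT and 3 *ifc* libraries was sequenced by the authors, who trimmed reads with Trimmomatic, aligned them with TopHat2 to B73 RefGen_v3 and kept exonic reads with BEDTools. FPKM values were then made by the authors (Cufflinks, Cuffdiff) on reads pooled per phenotype, with multi-mapped read and fragment bias corrections and quartile normalization. Fragments shared by similar WRKY genes were therefore divided by estimate. The methods describe strand-specific, ribosomal RNA-depleted libraries, while the labels name a TruSeq RNA kit. Library depth was not used here, and the table gives no transcript lengths, so no fragment numbers or counting intervals were computed. The table also holds the authors' fold changes, log2 values, p-values, q-values and calls, none of which was used.

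Ratios were taken from the pooled FPKM without a pseudocount. The named rows were every WRKY row past 1.5-fold and above 2 FPKM, the 5 of highest mean, rows sharing an *Arabidopsis* match with these, WRKY matches without the label past the same limits, and up to 4 such rows per pathway list. Other rows were named after their values were seen. Members and lists were chosen with earlier results of these data known. In all, 12 alternatives were run with Python 3.11.15, numpy 2.4.6 and pandas 2.3.3.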

Additional observations from a re-analysis of the deposited data

How the results depend on the processing

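The reported counts were 7 WRKY rows higher and 3 lower in *ifc* of 44, against 4.13% and 2.55% of all rows. Counted anew, they were 14 and 3 with no FPKM minimum, 4 and 0 above 10 FPKM, 2 and 0 at 2-fold, 5 and 1 on log2 of FPKM + 1, and 11 and 5 with all 13 rows added that hold WRKY in symbol or description. Had the summed FPKM been made equal, 41 of 44 were higher and 0 lower, as were 97.4% and 0.17% of all rows. The median log2 ratio was then 1.17 in place of 0.05, against 1.11 over all rows. The lower rows GRMZM2G018721, GRMZM2G031963 and GRMZM2G083717 had log2 ratios of 0.50, 0.44 and 0.51. This scaling shifts every log2 ratio by 1.13, through 1 row. Without that row the counts were 6 and 3 of 44, against 3.57% and 3.23% of all rows. For subgroup III, 2 of 8 rows were higher as reported. It was 1 of 8 on log2 of FPKM + 1 or + 0.1, at 2-fold or with the same total without that row, and 1 of 3 above 10 FPKM. It was 4 of 10 with no minimum, 4 of 12 with either set of added rows, and 8 of 8 with the same total. Shares of all rows higher are those given above for each setting, and 3.99% on log2 of FPKM + 0.1. Under the remaining settings run for each, these counts stayed within 1.5 times and the median within 0.1. Adding only the 7 rows with a WRKY symbol, and for subgroup III also both sets of added rows, 2-fold and 1 row per gene, were chosen after seeing the data. Leaving out a replicate was not run, because the deposited table pools the libraries and no values per library were used here. No paired analysis was possible because the deposited columns hold 1 pooled value per phenotype and carry no replicate number. Fragment numbers were not computed, so the counting error of rows under 2 FPKM is not known here.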

Other observations

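The table's KEGG column offers a view of plant-pathogen interaction that does not start from the WRKY label, and it was looked at after the values had been seen. This pathway held 115 rows, 6 of them with the WRKY label. Its 109 rows above 2 FPKM had a median log2 ratio of 0.03, against -0.02 over all rows. Of the 109, 5 (4.59%) were higher in *ifc* by more than 1.5-fold and 1 (0.92%) was lower. Over all rows the shares were 4.13% and 2.55%, so these counts do not set the pathway apart. Those higher were the WRKY33 match GRMZM2G012724, the JAZ12 match GRMZM2G143402 (47.7 FPKM in *ifc* and 27.4 in WT), a calmodulin, GRMZM5G847466 (35.3 and 21.6), the heat shock protein GRMZM2G112165 (401 and 256), an HSP90 match, and GRMZM5G868908 (552 and 352), the match of RAR1, a chaperone partner of HSP90 in resistance. The lower row was the WRKY2 match GRMZM2G151407.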
